A study of Mus musculus with 16 samples.

Results

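Microglia sorted from the ischemic hemisphere of mice were compared with microglia sorted from the brain of control mice. The comparison takes 8 of the 16 libraries of the series, 4 of each group, which were chosen by the CX3CR1 marker and the ischemic or control state in their labels and by no measured value. All 8 came from male CX3CR1CreERT2:Rosa26-tdT mice aged 13 to 14 weeks. These animals express a tamoxifen-dependent Cre recombinase from the Cx3cr1 promoter and carry a tdTomato reporter at the Rosa26 locus, and cells were sorted by flow cytometry after enzymatic dissociation and a Percoll gradient, with no antibody stain. The Cx3cr1 promoter is also active in brain border macrophages and in blood monocytes. The way ischemia was produced, the time after it, any sham operation of the controls and the schedule of tamoxifen are not stated in the sources used here. Labels do not say that each library came from its own animal, so p-values measure only how far the libraries spread, which may be technical.

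Microglia are the resident macrophages of the brain. In healthy tissue they survey the parenchyma with fine processes, guided by purine receptors such as P2RY12 and held in place by signals such as CX3CL1 and TGF-beta. When blood flow fails they meet nucleotides from dying cells, debris, lipid and complement, and they can proliferate, take up dead material, present antigen, and release cytokines, interferon-induced proteins and matrix proteins.

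Libraries held 35390644 to 48245164 counted reads. Component 1 of a principal component analysis held 68% of the variance and separated the 4 ischemic from the 4 control libraries. On component 2 ischemic replicate 2 stood apart from the other ischemic libraries, and on component 3 control replicate 1 stood apart from the other controls. Ischemic replicate 2 had 26 genes lying at least 1 log2 unit above and 26 lying that far below the other 3 ischemic libraries, and control replicate 1 had 15 and 10. Counts of mitochondrial genes made up 0.916 to 1.17% of each control library and 1.40 to 1.62% of each ischemic one. Every pair of libraries within a group differed by more than counting error. Levels are given as TMM-scaled CPM (a count relative to the scaled total of its library), in the order of replicates 1 to 4, and differences as log2 of ischemic over control with a standard error. Adjusted p-values are from edgeR's quasi-likelihood test with Benjamini-Hochberg adjustment over all genes tested, and a gene that passed 0.05 is said to have risen or fallen.

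Of the 14186 genes, 3685 rose (26%) and 3706 fell (26.1%) in ischemic microglia. Counts of list members below are to be read beside these shares, and several lists lie near them. The lists and their members were chosen with earlier results of these data known, so their shares are descriptions only. The groups of 4 libraries did not overlap for 47.9% of genes. A change of at least 2-fold was seen for 1250 genes that rose and 1053 that fell, and one of at least 8-fold for 137 that rose and 13 that fell. Scaling by library totals in place of TMM factors moved the median of all genes from -0.03 to -0.21 and the split of calls to 2519 higher and 5583 lower, so 31.1% of calls were higher in place of 49.9%. Upper quartile scaling gave 3116 higher and 4503 lower (40.9% higher), and RLE scaling 3813 and 3534 (51.9%). The TMM factors were 1.05 to 1.09 in control and 0.914 to 0.957 in ischemic libraries. Every difference below is relative to the middle of the transcriptome as TMM sets it, and small differences that did not pass under TMM, such as those of Csf1r, Cd80 and Tfe3, passed as declines with library totals.

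Genes of the sorting driver were read first. Cx3cr1, the fractalkine receptor gene at chr9:119901616-120069879 (coordinates here and below are GRCm38 with GENCODE M21 genes), stood at 2676, 3108, 2943 and 2907 CPM in control and 1985, 1699, 1975 and 1648 CPM in ischemic microglia. It fell (-0.67 ± 0.10, adjusted p = 2.93e-04) without overlap between the groups, and it remained abundant in both. Esr1 encodes the mouse form of the estrogen receptor, a receptor whose hormone-binding part is fused to Cre in these mice. Esr1 fell from 73.7 ± 4.43 to 36.5 ± 6.24 CPM (SD, n = 4 each, log2 difference -1.01 ± 0.12). Whether reads of the transgene enter the Esr1 counts was not tested, and neither Cx3cr1 nor Esr1 checks which hemisphere a library came from. Itgax, which encodes CD11c, rose from 28.2 ± 3.54 to 73.7 ± 26.7 CPM (1.38 ± 0.28), with 87.7, 33.7, 86.3 and 87.3 CPM in the 4 ischemic libraries. Replicate 2 was the lowest of these and lay just above the controls at 25 to 32 CPM.

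Markers of the other cell types that the sort could hold were examined next. Neutrophil and erythroid markers were close to absent: Ly6g and Elane had no count in any of the 8 libraries, S100a8 averaged 0.0174 and 0.157 CPM, and Csf3r, which microglia also express, made up nearly all of the neutrophil sum. The monocyte list of 16 genes summed to 173 to 283 CPM in control and 266 to 335 CPM in ischemic microglia, against 2108 to 7563 CPM in CD11c cells sorted from the ischemic hemisphere in the same series. Sums of marker lists here and below were scaled over all 16 libraries. Most of both microglia sums came from F13a1, also a border macrophage marker (means 184 and 149 CPM on that scale), and Thbs1 (31.0 and 106 CPM). Thbs1 ranged from 691 to 5226 CPM in the CD11c cells. Of its 11 tested members 5 rose (45.45%) and 1 fell (9.09%), against 26% and 26.1% of all genes. Plac8 was the largest at 3.01 ± 0.47 with 0.802 to 6.54 CPM, Ccr2, the monocyte chemokine receptor gene, fell (-0.98 ± 0.21), and Ly6c2 was too low to be tested, at 0.0946 and 0.203 CPM. With single libraries left out, the number of monocyte markers that rose ranged from 4 to 9. Dendritic cell markers summed to 35.2 to 50.5 CPM in control and 18.8 to 23.6 CPM in ischemic microglia. Of 9 tested members 5 fell (55.6%) and 1 rose (11.1%), against 26.1% and 26% of all genes. The number that fell ranged from 2 to 5 with single libraries left out. Means scaled over all 16 libraries went from 1.39 to 4.88 CPM for Ccr7, 1.80 to 1.90 CPM for Flt3 and 5.99 to 5.31 CPM for Zbtb46. That of Cd209a went from 24.1 to 2.04 CPM, most of the fall in the sum. Cd209a, a lectin of dendritic cells and some border macrophages, fell from 13.4, 23.7, 24.8 and 27.5 CPM to 2.17, 0.406, 3.88 and 1.34 CPM (-3.51 ± 0.53, adjusted p = 7.24e-04). Border macrophage markers were mixed, with 4 of 12 higher (33.3%) and 2 lower (16.7%), against 26% and 26.1% of all genes. Once control replicate 1 and ischemic replicate 2 were both left out, 8 were lower. Of that list Mrc1, the mannose receptor gene, fell (-0.90 ± 0.18), as did Pf4 (-1.30 ± 0.28; adjusted p = 0.0804 with all 16 libraries in a single edgeR model), and Siglec1, a sialic acid receptor that interferon induces, rose (1.76 ± 0.21). Of 8 astrocyte markers 2 rose and 4 fell. Gfap stood at 3.52 to 8.52 CPM in control and 18.95 to 26.8 CPM in ischemic microglia (scaled over all 16 libraries, like the marker sums). Of 9 tested oligodendrocyte markers 4 fell, and none with all 16 libraries in a single model. Of 11 tested neuron markers 1 rose and 3 fell, and of 9 endothelial markers 2 rose and 1 fell. Natural killer cell markers summed to at most 6.69 CPM, and of 4 tested 2 rose and 1 fell. In bulk RNA, fewer cells of a type and less RNA per cell cannot be told apart, and the part these cells have in the differences below was not tested.

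**Figure D1:**
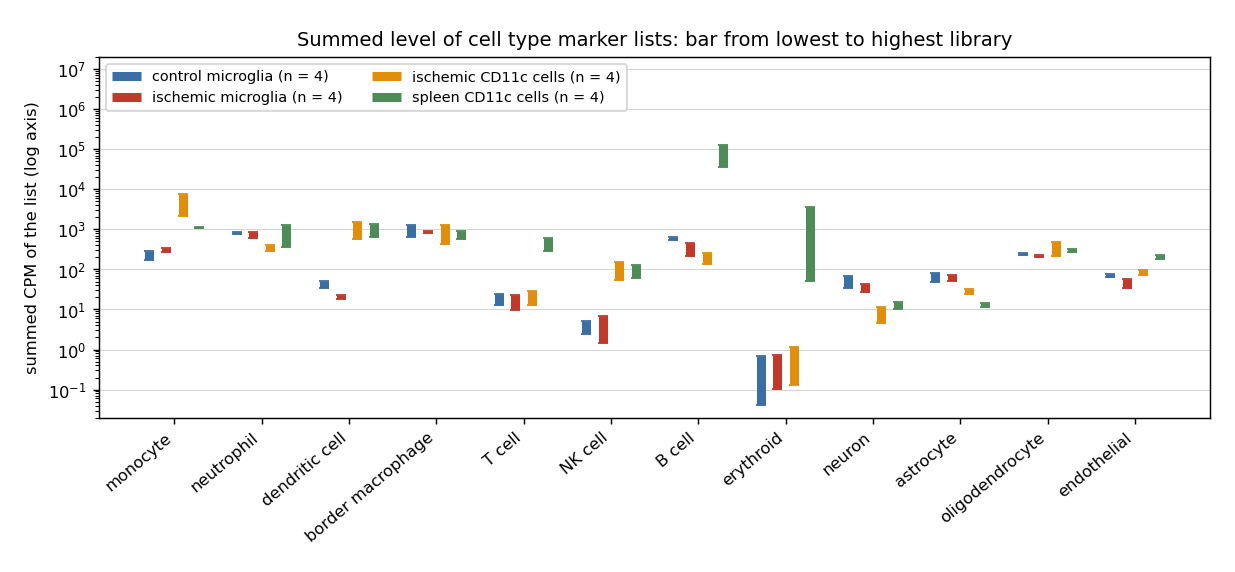
Summed CPM of 12 marker lists (log axis, scaled over all 16 libraries), with a bar from the lowest to the highest of the 4 libraries of each group. Both microglia groups sit well below the brain CD11c cells for monocyte and dendritic cell markers, and their erythroid sums are at most 0.727 CPM.

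**Figure D2:**
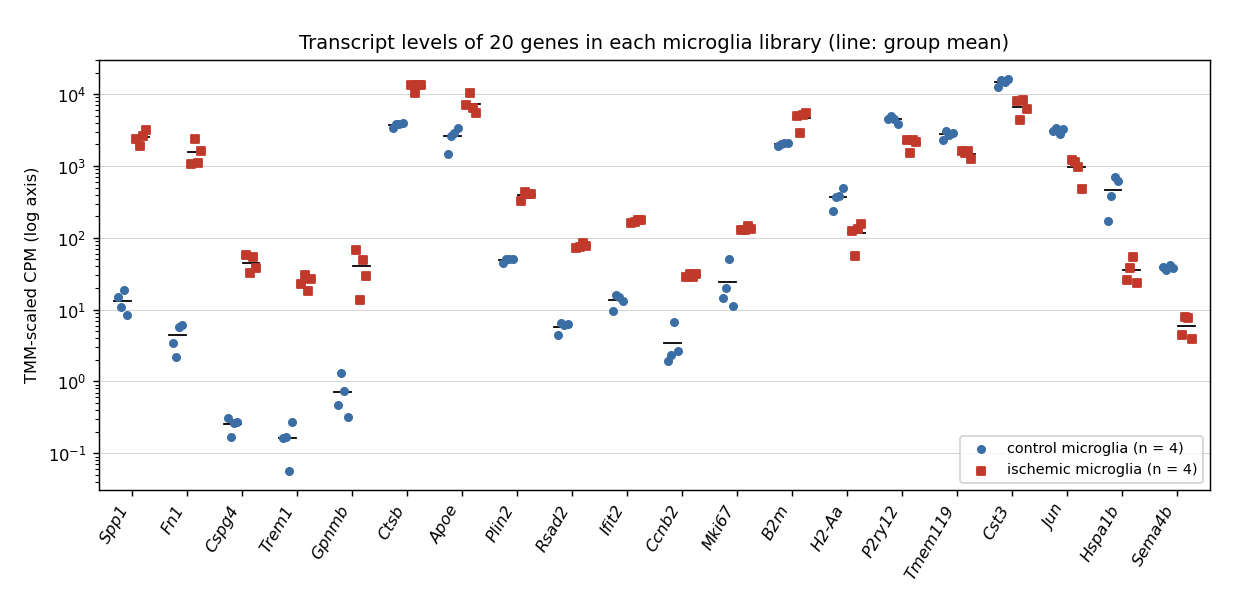
CPM (log axis) of 20 genes described in the text in each of the 4 control and 4 ischemic microglia libraries, with a line at each group mean. The groups do not overlap for any of these genes, and Spp1 and Fn1 rise from 8.48 to 18.8 and 2.21 to 6.11 CPM to 1880 to 3182 and 1076 to 2398 CPM.

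Identity genes of resident microglia fell on the whole, but far from uniformly. Of 24 homeostatic genes 12 fell, 1 rose and 11 did not pass, with a median of -0.42 against -0.03 for all genes tested. P2ry12, the ADP receptor that steers microglial processes, stood at 4521, 4960, 4462 and 3888 CPM in control and 2324, 1497, 2290 and 2168 CPM in ischemic microglia (-1.11 ± 0.15, adjusted p = 1.38e-04; chr3:59216272-59262871). Tmem119, a surface marker of microglia, went from 2333, 3060, 2689 and 2917 CPM to 1599, 1500, 1594 and 1233 CPM (-0.89 ± 0.12, adjusted p = 1.49e-04). In both cases the groups did not overlap and ischemic replicate 2 or 4 was the lowest library. The largest declines were those of Slc2a5, a fructose transporter (-1.35 ± 0.14), P2ry13, another ADP receptor (-1.26 ± 0.12), and Cst3, the secreted cathepsin inhibitor cystatin C, whose mean fell from 14810 to 6684 CPM (-1.15 ± 0.19). Sall1, the transcription factor that maintains microglial identity, fell by a smaller amount (-0.93 ± 0.15). Other genes of the signature did not pass. Csf1r, the receptor on which their survival depends, was at -0.17 ± 0.09 (adjusted p = 0.136), and Mertk, a receptor for apoptotic cells, at -0.08 ± 0.09 (adjusted p = 0.466). Gpr84, a receptor for medium-chain fatty acids that is counted in this list but is known to respond to inflammation, was the exception that rose (1.54 ± 0.14). Without ischemic replicate 2, 5 of the list rose in place of 1.

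Of 36 transcription factors of the macrophage lineage 9 rose and 9 fell, shares close to those of all genes, and with library totals 7 rose and 16 fell. Maf, which sustains the resting macrophage programme, fell from 566 ± 60.6 to 262 ± 40.2 CPM (-1.11 ± 0.12), and Lyl1 fell by a similar amount (-0.93 ± 0.16). Spi1, which encodes PU.1, the lineage's master regulator, rose by 0.26 ± 0.08 (adjusted p = 0.0174, and 0.0716 without control replicate 3), and Irf8, its partner, did not pass (-0.14 ± 0.11, adjusted p = 0.317). Bhlhe40, a repressor tied to macrophage proliferation and cytokine output, was the largest of those that rose, from 8.05, 8.23, 8.59 and 9.96 CPM to 41.3, 32.8, 40.4 and 39.2 CPM (2.14 ± 0.11, adjusted p = 3.01e-07). Hif1a, the oxygen-regulated factor, rose by 1.41 ± 0.16 and Nfe2l2, which encodes the antioxidant regulator NRF2, by 1.04 ± 0.19.

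Sensors of extracellular purines were divided between declines and increases. Besides the declines in P2ry12 and P2ry13, Entpd1, the ectonucleotidase CD39 that degrades ATP, fell (-0.69 ± 0.11). P2ry2, a receptor for ATP and UTP linked to uptake of dying cells, rose from 3.29, 0.640, 0.437 and 1.02 CPM to 13.2, 32.7, 13.0 and 18.8 CPM (3.86 ± 0.62, adjusted p = 0.00103). Without control replicate 1, its highest control, the difference for P2ry2 was 4.83. Adora1, an adenosine receptor, rose from 2.67 to 17.3 CPM (2.70 ± 0.18). P2rx4, an ATP-gated channel of reactive microglia, rose by 0.93 ± 0.09. Of the 15 tested members of this list 6 rose (40%) and 5 fell (33.3%), against 26% and 26.1% of all genes. The list's median of 0.30 turned to -0.06 when genes under a mean of 1 CPM were left out, and to -0.03 without control replicate 2. Among 20 ion channel genes 10 rose and 2 fell. Kcna3, the Kv1.3 potassium channel of activated microglia, rose from 1.13 to 7.06 CPM (2.62 ± 0.25), and Kcnk12, a tandem-pore potassium channel subunit, fell from 11.7 to 3.44 CPM (-1.77 ± 0.31). Kcnk13, which sets the resting potential of microglia, did not pass (-0.13 ± 0.10, adjusted p = 0.282).

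Genes of reactive microglia rose nearly throughout, with 22 of 24 tested members higher, none lower and a median of 2.03. Spp1, which encodes osteopontin, a secreted ligand of integrins and CD44, stood at 15.0, 10.9, 18.8 and 8.48 CPM in control and 2373, 1880, 2582 and 3182 CPM in ischemic microglia (7.55 ± 0.32, adjusted p = 5.74e-07; chr5:104435118-104441050). Gpnmb, a lysosomal and surface glycoprotein of lipid-loaded macrophages, went from 0.470, 1.30, 0.741 and 0.323 CPM to 67.7, 13.8, 49.4 and 29.6 CPM (5.80 ± 0.61, adjusted p = 1.10e-04). The ischemic libraries spread over a wide range for Gpnmb, with replicate 2 the lowest, and none reached down to the controls. Cst7, a cathepsin inhibitor, rose by 4.33 ± 0.27, Ch25h, which makes 25-hydroxycholesterol, by 4.74 ± 0.26, Lpl, a lipoprotein lipase, by 2.96 ± 0.34, and Axl, a receptor for apoptotic cells, by 2.49 ± 0.17. Trem2, the lipid receptor upstream of part of this signature in other models, did not pass (-0.03 ± 0.11, adjusted p = 0.839), although its adaptor Tyrobp rose (0.68 ± 0.11).

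Receptors for debris and lipoproteins behaved differently from one another. In the uptake list 12 of 25 rose and 5 fell, and 8 fell with library totals. Cd300lf, an inhibitory receptor for phosphatidylserine and other lipids, rose from 2.96, 2.40, 2.43 and 2.91 CPM to 42.6, 201, 52.9 and 78.0 CPM (5.13 ± 0.55, adjusted p = 1.18e-04). Olr1, the oxidized LDL receptor LOX-1, rose from 1.58 to 28.5 CPM (4.16 ± 0.16), and Clec4e, the Mincle receptor for material of dead cells, rose by 3.91 ± 0.55. Ischemic replicate 2 was the highest library for Cd300lf, and without it the differences were 4.44 for Cd300lf and 3.27 for Clec4e. Msr1, scavenger receptor A, rose by 2.19 ± 0.22. Mrc1 and the phosphatidylserine receptor Timd4 (-1.01 ± 0.22) fell, and Mrc1 also counts among the border macrophage markers above. Stab1, a scavenger receptor as abundant as 1512 CPM in controls, did not pass (0.10 ± 0.15, adjusted p = 0.592).

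Cd5l, a secreted macrophage protein that binds lipids and supports survival, rose from 0.751, 0.949, 1.22 and 0.969 CPM to 146, 46.9, 206 and 149.8 CPM (7.12 ± 0.51, adjusted p = 1.61e-05). Saa3, an acute-phase protein, had the largest fitted difference of any gene named by the rule (8.48 ± 1.16), with 12.7, 114, 15.8 and 17.1 CPM in the ischemic libraries and 0.0712 to 0.164 CPM in the controls. Ischemic replicate 2 stood far above the other 3, and without it the difference for Saa3 was 7.09.

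Matrix genes were the other large block of increases, with 21 of 29 tested members higher and 1 lower. Fn1, fibronectin, stood at 3.38, 2.21, 5.77 and 6.11 CPM in control and 1076, 2398, 1109 and 1641 CPM in ischemic microglia (8.47 ± 0.48, adjusted p = 4.39e-06; chr1:71585520-71653200). Cspg4, the NG2 chondroitin sulfate proteoglycan better known from pericytes and oligodendrocyte precursors, went from 0.305, 0.166, 0.266 and 0.269 CPM to 56.7, 31.9, 53.7 and 37.8 CPM (7.47 ± 0.27, adjusted p = 9.16e-08). Of the 4 tested oligodendrocyte precursor markers Cspg4 was the 1 that rose and Olig1 fell (-1.15 ± 0.34; it did not pass with all 16 libraries in a single model), and of 8 tested pericyte and fibroblast markers 1 rose and 1 fell. The part of these cells in the Cspg4 values was not tested. Lox, which cross-links collagen, rose from 0.771 to 7.18 CPM (3.21 ± 0.40), Adam8, a membrane protease, by 2.93 ± 0.20, and Mmp19, a matrix metalloproteinase, by 2.64 ± 0.26. Mmp9, a gelatinase studied in stroke, did not pass at 2.62 to 1.54 CPM (-0.77 ± 0.38, adjusted p = 0.115; it passed without control replicate 1, at -1.0, and without ischemic replicate 4, at -1.11), nor did Mmp12 (0.22 ± 0.39, adjusted p = 0.656), and Timp1 was below the filter. Among 20 integrin and adhesion genes 11 rose and 3 fell (5 with library totals). Cd44, the hyaluronan and osteopontin receptor, rose by 2.57 ± 0.19, and Itga5, a fibronectin receptor subunit, from 60.2 ± 22.6 to 299 ± 74.5 CPM (2.31 ± 0.27). Itgav, a subunit of receptors for osteopontin and fibronectin, fell (-0.29 ± 0.07; adjusted p = 0.00458, and 0.216 with all 16 libraries in a single edgeR model). Pecam1, an adhesion molecule of endothelium and myeloid cells, fell (-1.51 ± 0.15). Sema4b, a membrane semaphorin, fell from 39.0, 35.8, 42.2 and 37.9 CPM to 4.49, 7.79, 7.58 and 3.85 CPM (-2.71 ± 0.22, adjusted p = 1.49e-05).

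Of 24 cytoskeletal genes 18 rose and 2 fell, and of 19 annexins, galectins and S100 proteins 12 rose and none fell. Vim, vimentin, an intermediate filament protein, rose from 15.3, 16.8, 19.4 and 24.1 CPM to 139.9, 218, 178 and 191 CPM (3.27 ± 0.18, adjusted p = 1.37e-06). Myo1e, a membrane-associated myosin, rose by 2.23 ± 0.18, and Fscn1, an actin bundling protein, fell from 649.6 to 299 CPM (-1.12 ± 0.16). Anxa2, a phospholipid-binding annexin, rose from 4.91 to 62.8 CPM (3.68 ± 0.21), Lgals3, galectin-3, by 2.97 ± 0.20, and the secreted galectin-3 binding protein Lgals3bp from 291 to 2070 CPM (2.83 ± 0.14). Anxa1, an anti-inflammatory annexin, was low and did not pass (0.22 ± 0.38, adjusted p = 0.649).

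Lysosomal genes rose almost without exception but by modest factors. Of 31 hydrolases and lysosomal membrane proteins 29 rose, none fell, and the median was 0.78. Ctsb, cathepsin B, went from 3390, 3893, 3810 and 3948 CPM to 13320, 10500, 13240 and 13240 CPM (1.74 ± 0.11, adjusted p = 1.93e-06), with replicate 2 below the other 3 ischemic libraries. The tetraspanin Cd63 rose by 1.91 ± 0.08, cathepsin L (Ctsl) by 1.79 ± 0.09, beta-glucuronidase (Gusb) by 1.71 ± 0.08, and the lysosomal chaperone and growth factor progranulin (Grn) by 1.66 ± 0.10. The calcium channel gene Mcoln1 was among the 2 of the list that did not pass (-0.12 ± 0.08, adjusted p = 0.207). The proton pump that acidifies the lysosome moved with them, with 12 of 16 subunits and accessory proteins higher and none lower. Atp6v1a, its catalytic subunit, rose by 1.5 ± 0.18, while Atp6v0a1 of the membrane sector stayed at -0.02 ± 0.07 (adjusted p = 0.811). Tfeb, the factor that drives lysosomal genes, fell (-0.67 ± 0.13), and the related Mitf and Tfe3 did not pass (0.14 ± 0.08, adjusted p = 0.129; -0.12 ± 0.08, adjusted p = 0.234).

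The CLEAR element, to which the TFEB family binds, was searched for as TCACGTGA in promoters from 250 bases before to 50 after the gene start (RefSeq, GRCm38.p6). It was found in 3 of the 24 lysosomal genes with a promoter in the table (12.5%), in 2.19% of all tested genes and in 1.12% of all 27025 promoters. One of these is shown because cathepsin D (Ctsd) was among the most abundant genes that rose, from 6198 to 15210 CPM (1.30 ± 0.13). The window lies at chr7:142387889-142387956 on the minus strand, 5′ to 3′, with the element in capitals.
Ctsd: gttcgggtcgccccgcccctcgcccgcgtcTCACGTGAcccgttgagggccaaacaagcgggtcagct

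Lipid storage and efflux genes were mostly higher, with 15 of 23 that rose and 5 that fell. Plin2, the coat protein of lipid droplets, stood at 43.9, 50.6, 50.4 and 50.6 CPM in control and 324, 432, 409 and 408 CPM in ischemic microglia (3.01 ± 0.11, adjusted p = 3.57e-08). Apoc1, an apolipoprotein encoded beside Apoe, rose from 0.381 to 12.8 CPM (5.03 ± 0.34), and Apoe itself from 1465, 2658, 2877 and 3435 CPM to 6972, 10380, 6454 and 5412 CPM (1.49 ± 0.28, adjusted p = 0.00191). For Apoe, ischemic replicate 2 was the highest library and control replicate 1 the lowest. Fabp5, a fatty acid carrier, rose by 3.62 ± 0.27, Soat1, which esterifies cholesterol for storage, by 0.91 ± 0.08, and Abca1, the cholesterol exporter, by 1.01 ± 0.09. Cholesterol synthesis did not move as a block: 6 of 21 rose (28.6%) and 3 fell (14.3%), against 26% and 26.1% of all genes. With library totals 6 fell. Mvd, an enzyme of the mevalonate steps, rose by 0.70 ± 0.13.

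Central carbon metabolism rose in part. Of 21 glycolysis genes 13 rose and 4 fell. Ldha, lactate dehydrogenase, rose from 116 ± 11.3 to 319 ± 65.9 CPM (1.46 ± 0.15), Pkm, pyruvate kinase, by 1.41 ± 0.14, and Slc16a3, the lactate exporter MCT4, by 1.58 ± 0.26. The first step divided: Hk2 did not pass (0.11 ± 0.12, adjusted p = 0.453), and Hk1 fell (-0.53 ± 0.08). Gapdh was at 15.0 to 12.1 CPM, a low level for a gene with many near-identical pseudogenes, and it and other genes with such copies, which include Pgk1, Pgam1 and most ribosomal protein genes, are uncertain here. Hypoxia response genes were less uniform, with 8 of 20 higher and none lower. Egln3, an oxygen-sensing hydroxylase that hypoxia induces, rose from 0.845, 1.07, 1.48 and 1.10 CPM to 13.7, 2.36, 17.3 and 10.2 CPM (3.26 ± 0.55, adjusted p = 0.00135), while Vegfa did not pass (0.65 ± 0.64, adjusted p = 0.418) with 20.5, 3.88, 41.4 and 17.8 CPM in the ischemic libraries. Replicate 2 was far below the others for Vegfa.

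Slc2a6, a lysosomal hexose transporter of activated macrophages, had the largest change among 18 nutrient transporters. It stood at 5.19, 4.03, 4.46 and 5.81 CPM in control and 149, 207, 142 and 151 CPM in ischemic microglia (5.06 ± 0.16, adjusted p = 3.08e-08). Acod1, the mitochondrial enzyme that makes itaconate, went from 0.493, 0.0474, 0.456 and 1.10 CPM to 37.3, 33.8, 37.7 and 49.4 CPM (6.27 ± 0.46, adjusted p = 1.68e-05). Ass1, which makes argininosuccinate, rose from 0.240 to 3.70 CPM (3.89 ± 0.47). Arg1, the arginase used to mark alternative activation, reached 0.406, 5.71, 0.475 and 1.01 CPM in ischemic and 0.0380 to 0.188 CPM in control libraries (4.39 ± 1.08; 2.81 without ischemic replicate 2, and adjusted p = 0.0519 with all 16 libraries in a single edgeR model), and Nos2, the inducible nitric oxide synthase, averaged 0.0261 and 0.0799 CPM and was not tested.

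Oxidant and metal handling changed in single branches. Of 18 antioxidant and metallothionein genes 10 rose and 2 fell. Srxn1, sulfiredoxin, rose by 1.80 ± 0.29, Txnrd1, thioredoxin reductase, by 1.49 ± 0.33, and Prdx1, a peroxiredoxin, by 1.07 ± 0.11, while Hmox1, heme oxygenase, did not pass (0.11 ± 0.20, adjusted p = 0.678). The catalytic subunit of the phagocyte NADPH oxidase, Cybb, rose from 91.9 ± 19.9 to 178 ± 27.2 CPM (0.95 ± 0.16), and 6 of its 7 listed genes rose. In iron handling Slc40a1, the iron exporter ferroportin, fell (-0.92 ± 0.08), Slc11a2, the importer DMT1, rose (1.07 ± 0.20), and the ferritin chains parted, with Fth1 at 0.87 ± 0.13 and Ftl1 at -0.44 ± 0.08. Ftl1 has near-identical pseudogenes and is uncertain.

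All 34 genes of the type I interferon response rose, with a median of 2.47. Rsad2, viperin, an antiviral radical enzyme, stood at 4.41, 6.47, 6.04 and 6.27 CPM in control and 71.2, 75.1, 83.9 and 76.5 CPM in ischemic microglia (3.72 ± 0.12, adjusted p = 3.04e-08; chr12:26442746-26456452). Ifit2, which binds foreign RNA, went from 9.58, 15.9, 15.2 and 13.0 CPM to 163, 167, 177 and 177 CPM (3.67 ± 0.15, adjusted p = 7.81e-08). Libraries within a group lay close together for both genes. Irf7, the regulator that amplifies the response, rose from 24.4 to 206 CPM (3.08 ± 0.23), Zbp1, a sensor of Z-form nucleic acid, by 3.42 ± 0.28, and Isg15, a ubiquitin-like modifier, by 2.44 ± 0.21. Ifit3 (2.96 ± 0.19) and Ifit3b (2.82 ± 0.28) are near-identical copies, so their split is uncertain, as is that of the Oas1 genes. The smallest changes were those of Irf9 (0.62 ± 0.07) and Mx2 (0.83 ± 0.11).

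Upstream of these genes, Ifnb1, interferon beta, rose from 0.493, 0.285, 0.323 and 0.215 CPM to 3.75, 2.84, 2.20 and 10.6 CPM (3.86 ± 0.56, adjusted p = 4.56e-04), a level that remained low (3.14 without ischemic replicate 4), and Ifnar1, a receptor chain, rose by 0.66 ± 0.09. Tmem173, which encodes STING, fell (-0.51 ± 0.12), as did Irf3 (-0.54 ± 0.08) and the interferon gamma receptor chain Ifngr1 (-0.48 ± 0.11), and Ifng itself averaged 0.0369 CPM in ischemic microglia. The GTPases that both interferon types induce were less uniform, with 9 of 15 higher and 1 lower: Gbp2 rose by 2.23 ± 0.15 and Irgm1 by 1.33 ± 0.08, while Irgm2 fell (-0.80 ± 0.11) and Igtp did not pass (0.12 ± 0.08, adjusted p = 0.230).

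The core of the interferon-stimulated response element, GAAANNGAA on either strand, was present in the promoters of 14 of the 23 interferon response genes in the table (60.9%) and 11 of the 12 GTPases (91.7%), against 8.99% of all tested genes and 9.76% of all promoters. The windows below hold it in genes described above, and in the chemokine gene Cxcl10, described below. Capitals mark the element, on whichever strand it was found, and in Isg15 mark 3 overlapping matches. They lie at chr12:26456533-26456601 (minus strand), chr19:34583397-34583465 (plus), chr4:156200846-156200914 (minus) and chr5:92349064-92349132 (minus).
Rsad2: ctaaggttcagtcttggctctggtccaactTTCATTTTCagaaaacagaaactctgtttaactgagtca
Ifit3: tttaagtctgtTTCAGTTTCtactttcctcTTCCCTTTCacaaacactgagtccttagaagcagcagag
Isg15: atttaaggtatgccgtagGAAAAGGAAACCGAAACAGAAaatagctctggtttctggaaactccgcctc
Cxcl10: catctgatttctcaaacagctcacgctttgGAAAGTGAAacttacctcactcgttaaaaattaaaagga

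Antigen presentation went opposite ways in its 2 classes. Of 21 class I genes 17 rose and none fell. B2m, the light chain shared by class I molecules, went from 1898, 2032, 2094 and 2067 CPM to 4944, 2920, 5169 and 5444 CPM (1.19 ± 0.17, adjusted p = 2.51e-04), with ischemic replicate 2 the lowest of its group and still above every control. Nlrc5, the class I transactivator, rose from 18.5 to 83.5 CPM (2.17 ± 0.13), Tap1, the peptide transporter, by 1.30 ± 0.08, and H2-K1 by 1.20 ± 0.14. H2-Q6 and H2-Q7 are near-identical and their split is uncertain. In class II, 6 of 14 genes fell and 1 rose, and 10 fell with library totals. H2-Aa, a class II alpha chain, stood at 237, 375, 378 and 491 CPM in control and 124, 56.2, 132 and 154 CPM in ischemic microglia (-1.66 ± 0.32, adjusted p = 0.00270). Cd74, the invariant chain, fell (-1.47 ± 0.26), and Ciita, the class II transactivator, fell from 2.42, 6.83, 8.39 and 7.08 CPM to 2.17, 0.305, 1.53 and 1.34 CPM (-2.20 ± 0.53, adjusted p = 0.00741). The list's exception was Ifi30, a lysosomal thiol reductase, which rose (1.86 ± 0.11). H2-DMa, whose product loads class II peptides, did not pass (0.01 ± 0.11, adjusted p = 0.919). Of 9 tested dendritic cell markers 5 fell (55.6%) and 1 rose (11.1%), against 26.1% and 26% of all genes, at sums of 18.8 to 50.5 CPM over both groups. The part of dendritic cells in the class II declines was not tested.

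Costimulatory ligands mostly rose, 10 of 14 with 1 lower. Cd274, the checkpoint ligand PD-L1, rose from 34.8 to 184 CPM (2.40 ± 0.29), Tnfsf9, the 4-1BB ligand, by 2.05 ± 0.27, and Cd40 by 1.52 ± 0.30. Cd86 rose by 0.43 ± 0.13, with an adjusted p of 0.107 in edgeR under scaling by library totals, and Cd80 did not pass (-0.16 ± 0.11, adjusted p = 0.248). Vsir, the inhibitory receptor VISTA, fell from 2916 to 1756 CPM (-0.73 ± 0.08).

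**Figure D3:**
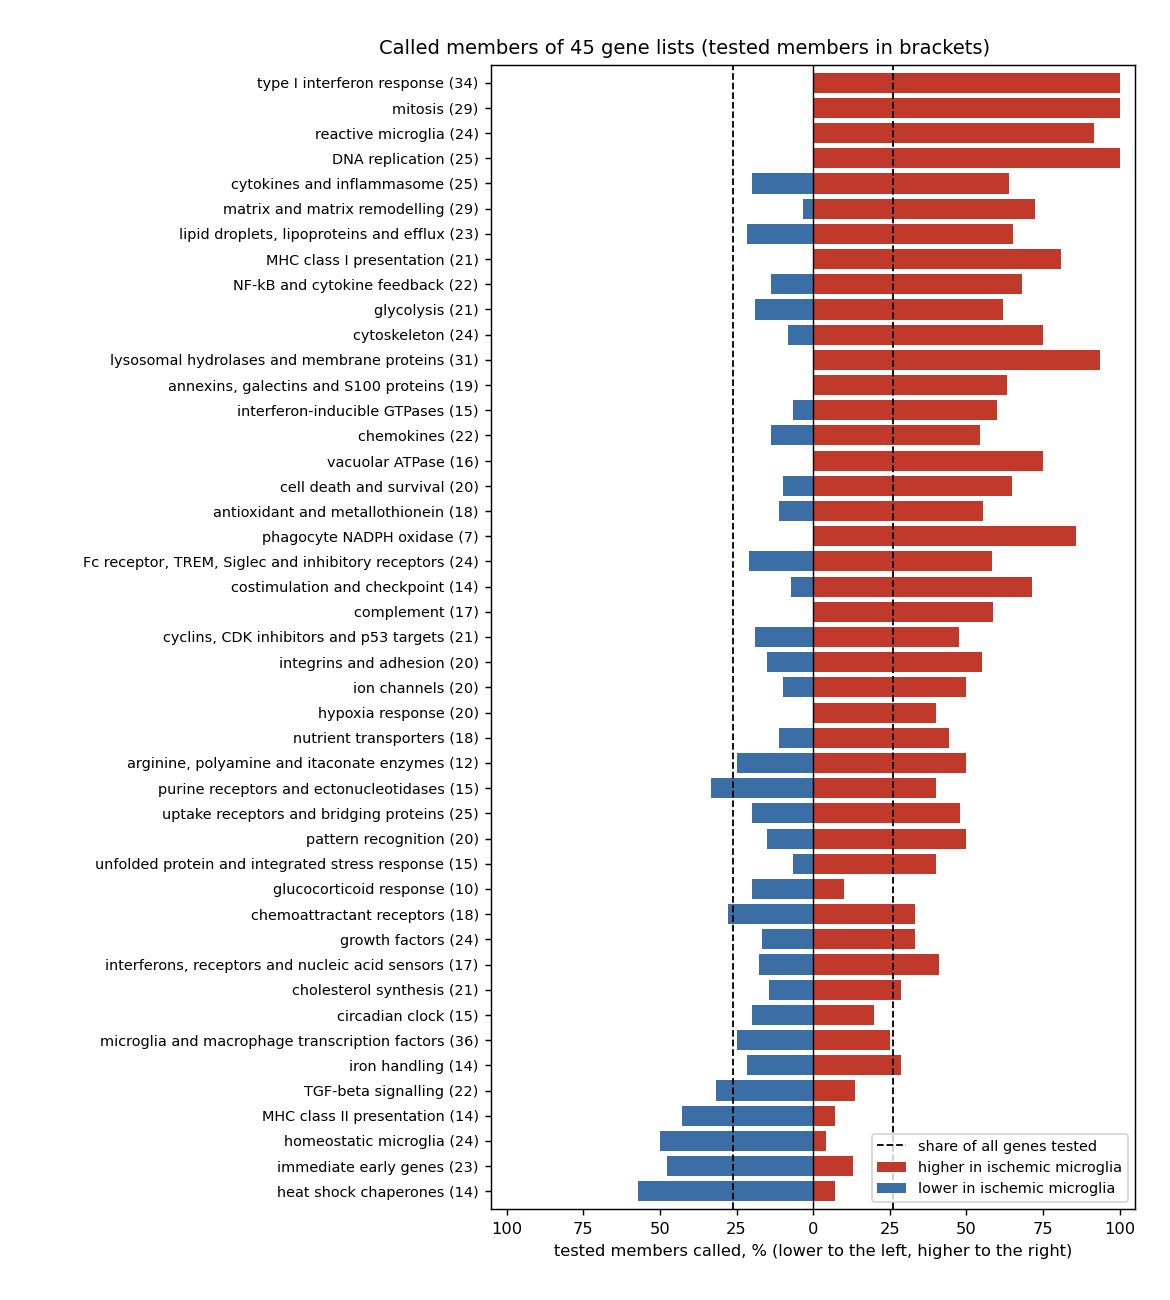
Share of the tested members of 45 gene lists that rose (right, red) or fell (left, blue) in ischemic microglia, ordered by their median difference, with dashed lines at the shares over all genes tested. Interferon response, mitosis and DNA replication genes reach 100% higher, and heat shock chaperones have the largest share of lower members. The lists were chosen with earlier results of these data known.

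Cytokines did not follow a single direction. Of 25 genes 16 rose and 5 fell. Il12b, the p40 chain of interleukins 12 and 23, stood at 1.15, 0.285, 0.95 and 0.592 CPM in control and 34.6, 5.53, 19.7 and 37.2 CPM in ischemic microglia (5.0 ± 0.67, adjusted p = 3.80e-04), with replicate 2 the lowest ischemic library and a difference for Il12b of 5.61 without it and control replicate 1. Il1rn, the interleukin 1 receptor antagonist, rose from 5.85, 2.82, 4.63 and 6.54 CPM to 62.5, 45.3, 59.5 and 88.5 CPM (3.69 ± 0.29, adjusted p = 2.34e-05), a larger change than those of Il1b (1.5 ± 0.18) and Il1a (1.31 ± 0.25), the agonists. Tnf rose by 1.5 ± 0.35 and Ptgs2, cyclooxygenase 2, by 2.39 ± 0.31. Il16 fell from 199 to 107 CPM (-0.90 ± 0.13), and Il10 did not pass (-0.45 ± 0.48, adjusted p = 0.458).

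Of 22 chemokine genes 12 rose and 3 fell. Cxcl10, a ligand of CXCR3, went from 30.1, 37.7, 38.0 and 45.2 CPM to 353, 171, 336 and 474 CPM (3.14 ± 0.29, adjusted p = 5.98e-05), Ccl5 rose by 2.92 ± 0.26 and Ccl12 by 1.58 ± 0.11. Ccl2, the monocyte attractant, did not pass (0.29 ± 0.23, adjusted p = 0.313), nor did the neutrophil attractant Cxcl1 (-0.14 ± 0.27, adjusted p = 0.689). Ccl24, an eosinophil attractant of alternatively activated macrophages, fell from 26.3, 27.7, 30.0 and 34.5 CPM to 10, 4.11, 7.10 and 4.68 CPM (-2.19 ± 0.26, adjusted p = 1.48e-04). Among receptors Cxcr4, for the retention signal CXCL12, rose (1.84 ± 0.19) and C5ar1, for the complement fragment C5a, rose (1.23 ± 0.10), while Gpr183, an oxysterol receptor, fell (-0.94 ± 0.18).

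Complement rose in 10 of 17 genes and fell in none, and 3 fell with library totals. C3, the central component, rose from 3.45, 6.14, 6.69 and 10.3 CPM to 58.3, 55.4, 70.8 and 64.8 CPM (3.23 ± 0.28, adjusted p = 3.52e-05), C4b by 2.29 ± 0.35, and the far more abundant C1q chains by 0.50 ± 0.11 (C1qa), 0.53 ± 0.11 (C1qb) and 0.49 ± 0.11 (C1qc).

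Pattern receptors moved in both directions, with 10 of 20 higher and 3 lower, and 6 lower with library totals. Tlr2, which senses bacterial lipopeptides, rose from 375 ± 88.7 to 1852 ± 209 CPM (2.30 ± 0.16). Tlr5, the flagellin receptor, fell from 34.3, 38.0, 37.9 and 32 CPM to 6.42, 5.53, 9.43 and 4.94 CPM (-2.43 ± 0.18, adjusted p = 5.78e-06), and Tlr4, the endotoxin receptor, fell (-0.89 ± 0.09) while its coreceptor Cd14 rose (1.21 ± 0.16). In the TREM and Fc receptor list 14 of 24 rose and 5 fell. Trem1, an amplifier of innate inflammation, went from 0.164, 0.166, 0.0570 and 0.269 CPM to 22.7, 30.5, 18.2 and 26.6 CPM (7.27 ± 0.30, adjusted p = 1.33e-07), and its neighbour Trem3 from 0.00593 to 0.806 CPM (6.54 ± 0.65; 8.08 without control replicate 2). Treml2 rose by 2.45 ± 0.10 and Fcgr4, an activating Fc receptor, by 2.54 ± 0.17, while Siglece, an inhibitory receptor for sialic acid, fell (-1.20 ± 0.08). Trem1 is also made by neutrophils and monocytes. Of the neutrophil list 2 of 14 markers were tested and neither passed. Of 11 tested monocyte markers 5 rose (45.45%, against 26% of all genes). Among them were Thbs1 (from 28.9 to 102 CPM), Gda (from 1.54 to 5.87 CPM) and Plac8 (from 0.802 to 6.54 CPM). Gda did not pass in edgeR with no filter beyond 1 count (adjusted p = 0.0735). Ccr2 of the same list fell (-0.98), and Ly6c2 was too low to be tested. The part of neutrophils and monocytes in the Trem1 values was not tested.

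Feedback regulators of NF-kB rose in 15 of 22 cases and fell in 3. Zc3h12a, the RNase Regnase-1 that limits cytokine transcripts, rose by 1.67 ± 0.34, Bcl3, an atypical IkB protein, by 1.71 ± 0.25 and Tnip1, a partner of A20, by 0.99 ± 0.11. Nfkbia, the classical inhibitor, did not pass (-0.22 ± 0.17, adjusted p = 0.289). Dusp6, the phosphatase of ERK kinases, fell from 429 to 156 CPM (-1.46 ± 0.23).

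Of 24 secreted growth factors 8 rose (33.3%) and 4 fell (16.7%), against 26% and 26.1% of all genes. Csf1, a ligand of CSF1R on microglia themselves, rose from 266, 127, 167 and 128 CPM to 910.3, 648, 812 and 671 CPM (2.14 ± 0.25, adjusted p = 1.34e-04). Igf1, a trophic factor for neurons and glia, rose from 11.2, 22.7, 23.6 and 25.3 CPM to 96.5, 30.5, 103 and 75.3 CPM (1.88 ± 0.39, adjusted p = 0.00386). Hgf rose by 1.82 ± 0.23 at a low level, and Bmp2 fell from 22.5 to 6.58 CPM (-1.77 ± 0.46; adjusted p = 0.0567 in edgeR with no filter beyond 1 count). In the TGF-beta pathway, on which the homeostatic signature depends, 7 of 22 genes fell (31.8%) and 3 rose (13.6%). Of all genes 26.1% fell and 26% rose, so the share that fell was near that of all genes. The list's median was -0.12, against -0.03 for all genes tested. When ischemic replicate 4 was left out 1 rose, and with library totals 11 fell and 1 rose. Tgfb1, the ligand, did not pass (0.06 ± 0.08, adjusted p = 0.578), while its receptor Tgfbr1 (-0.65 ± 0.10), the effector Smad3 (-0.41 ± 0.11), the target and inhibitor Smad7 (-0.73 ± 0.14) and the coreceptor endoglin (Eng, -1.07 ± 0.16) fell.

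**Figure D4:**
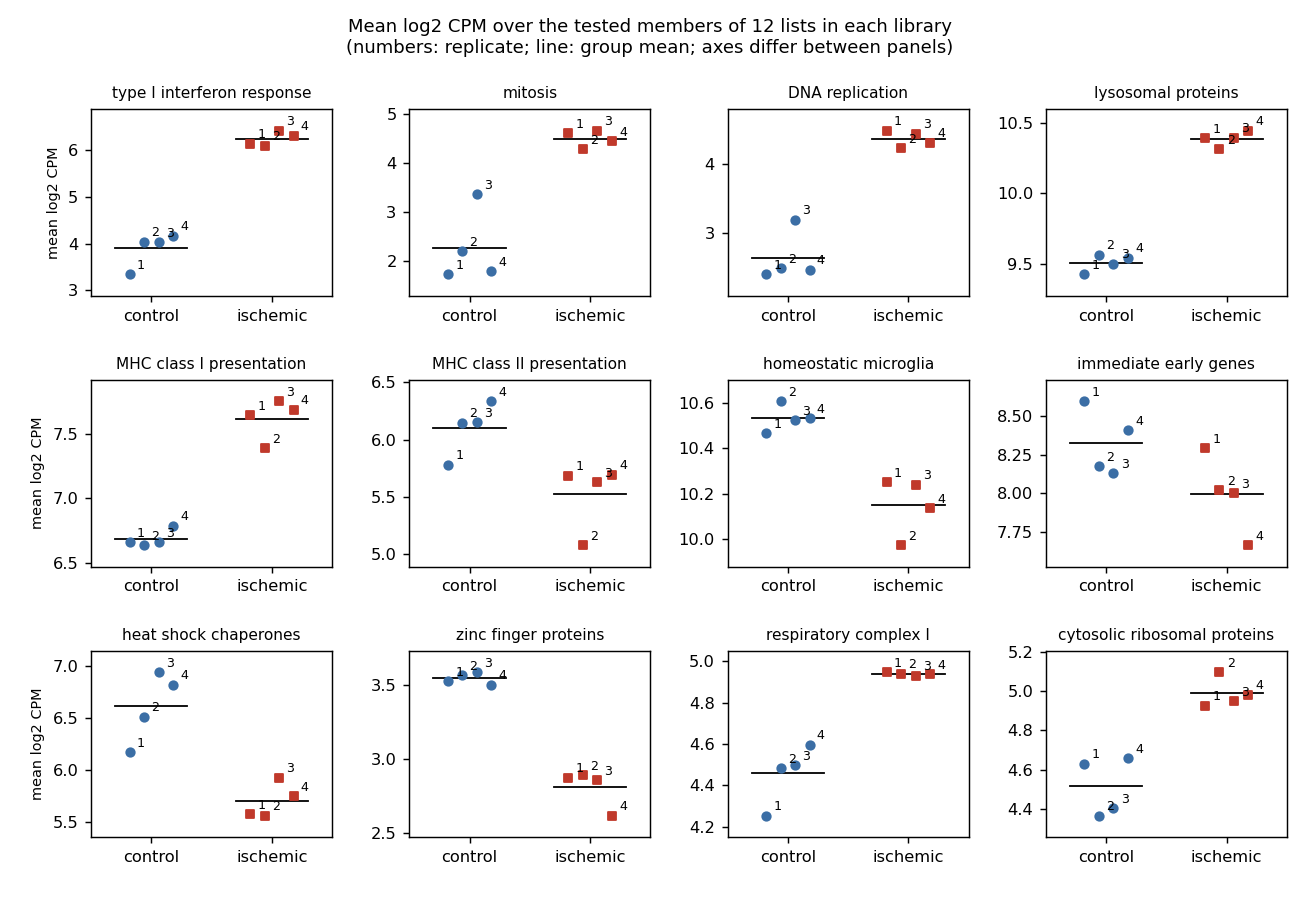
Mean log2 CPM over the tested members of 12 lists or families in each library, with replicate numbers beside the points and a line at each group mean (axes differ between panels). The 4 and 4 libraries are apart in every panel except the immediate early genes, and control replicate 3 lies above the other controls for mitosis and DNA replication.

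Cell cycle genes rose throughout. All 25 DNA replication genes and all 29 mitosis genes were higher, with medians of 1.59 and 2.13. Mki67, a marker of cycling cells, stood at 14.7, 19.7, 51.1 and 11.1 CPM in control and 129.5, 130.5, 147 and 131 CPM in ischemic microglia (2.47 ± 0.44, adjusted p = 0.00175). Ccnb2, a mitotic cyclin, went from 1.93, 2.30, 6.82 and 2.69 CPM to 28.9, 31.3, 28.9 and 31.6 CPM (3.11 ± 0.37, adjusted p = 2.07e-04), and Rrm2, which supplies deoxynucleotides, from 1.27, 2.63, 7.45 and 1.26 CPM to 36.2, 25, 32 and 25.8 CPM (3.21 ± 0.53, adjusted p = 0.00126). In all 3 control replicate 3 was the highest control and remained below every ischemic library. Without it, the difference for Mki67 was 3.14, that for Ccnb2 3.71, that for Rrm2 4.10 and that for Ccne1 3.28. Of the licensing helicase, Mcm5 rose by 1.69 ± 0.14 and Mcm3 by 0.66 ± 0.08. Drivers and brakes of entry were mixed: Ccne1, cyclin E1, rose by 2.63 ± 0.43 and the inhibitor Cdkn1a, p21, from 115 ± 11.1 to 379.7 ± 21.7 CPM (1.72 ± 0.09), while Ccnd1, cyclin D1, fell (-0.58 ± 0.13) and Gadd45g, a growth arrest gene, fell (-2.01 ± 0.10). Trp53 did not pass (-0.03 ± 0.10, adjusted p = 0.796).

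The cell cycle homology region, TTTGAA, through which many late cell cycle genes are repressed in resting cells, occurred in the promoters of 18 of 26 mitosis genes (69.2%) but 3 of 19 replication genes (15.8%), against 14.6% of all tested genes and 20.2% of all promoters. The stretches before the start of Cdk1, the mitotic kinase (2.25 ± 0.31), and Cdc20, an activator of the anaphase ligase (1.74 ± 0.35), are given with the element in capitals, at chr10:69352913-69352957 and chr4:118437344-118437391, both on the minus strand.
Cdk1: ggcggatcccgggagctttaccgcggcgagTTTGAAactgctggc
Cdc20: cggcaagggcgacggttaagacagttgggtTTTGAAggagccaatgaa

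Genes of cell death and survival rose in 13 of 20 cases and fell in 2. Fas, a death receptor, rose from 1.16 to 5.32 CPM (2.19 ± 0.32) and Mlkl, the executor of necroptosis, by 1.57 ± 0.25, beside the survival factor Mcl1 (0.89 ± 0.19). Bcl2a1a, Bcl2a1b and Bcl2a1d, near-identical survival genes whose split is uncertain, rose by 2.25 ± 0.27, 1.68 ± 0.21 and 2.75 ± 0.38. Bid, which links death receptors to mitochondria, fell (-0.64 ± 0.09).

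Immediate early genes, which dissociation and sorting are known to induce in microglia, fell in 11 of 23 cases and rose in 3. The number that rose was 1 without control replicate 3, without ischemic replicate 4 or with all 16 libraries, and 5 without control replicate 1 and ischemic replicate 2. Jun stood at 3040, 3403, 2807 and 3233 CPM in control and 1222, 1153, 976 and 472 CPM in ischemic microglia (-1.71 ± 0.26, adjusted p = 6.01e-04), and Egr1 at 2783, 1888, 2021 and 2607 and 1374, 1201, 1229 and 615 CPM (-1.07 ± 0.24, adjusted p = 0.00457). The groups did not overlap for either gene, and ischemic replicate 4 was lowest for Jun. Zfp36, an RNA-destabilizing protein, fell from 4147 to 2214 CPM (-0.91 ± 0.11), and Jund fell as well (-1.51 ± 0.21).

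Heat shock chaperones had the largest share of lower genes among the 45 lists, 8 of 14, with 1 that rose. Hspa1b, an inducible HSP70, stood at 171, 378, 703 and 621 CPM in control and 25.8, 37.8, 54.2 and 23.2 CPM in ischemic microglia (-3.73 ± 0.48, adjusted p = 3.26e-04; chr17:34956436-34959238). Its neighbour Hspa1a fell by a similar amount (-3.16 ± 0.40), and the pair are near-identical, so reads may be divided between them. Hsp90aa1, the inducible HSP90, fell from 119 to 54.5 CPM (-1.12 ± 0.17), as did Hsph1 (-1.5 ± 0.32) and Dnajb1 (-0.93 ± 0.18), whereas the constitutive Hsp90ab1 (-0.11 ± 0.14, adjusted p = 0.530) and Hspa8 (-0.21 ± 0.13, adjusted p = 0.187) did not pass (Hspa8 passed, at -0.35, without control replicate 1). Control libraries were themselves spread, replicate 1 the lowest for Hspa1b and nearest to the ischemic group. The labels give 1 dissociation protocol for all libraries, and any difference in handling between the groups cannot be told apart from the ischemic state.

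A heat shock element, GAANNTTC, lay in the promoters of 8 of 10 chaperone genes (80%), against 7.12% of all tested genes and 9.04% of all promoters. The windows of the HSP70 pair were identical over all 68 bases, at chr17:34959305-34959372 and chr17:34972223-34972290 on the minus strand.
Hspa1b: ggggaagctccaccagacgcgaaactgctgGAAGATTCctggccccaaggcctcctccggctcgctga
Hspa1a: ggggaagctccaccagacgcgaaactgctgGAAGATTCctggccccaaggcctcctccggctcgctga

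Other stress lists varied with the setting. In the unfolded protein response 6 of 15 genes rose and 1 fell, and the 16-library model left 1 that rose, library totals 2, and leaving out control replicate 4 or ischemic replicate 4 left 3. Asns, asparagine synthetase, rose by 1.09 ± 0.24 (a gene that did not pass with all 16 libraries in a single model), while Ddit3, a factor of terminal stress, did not pass (-0.25 ± 0.19, adjusted p = 0.302). Of 10 glucocorticoid response genes 1 rose, Fkbp5 (1.89 ± 0.47), and 2 fell, the receptor Nr3c1 (-0.62 ± 0.09) and Dusp1 (-0.43 ± 0.13), which did not pass with all 16 libraries in a single model. Without control replicate 1, 3 of them rose. The list's score in ischemic replicate 2 was 7.06, against 5.71 to 6.44 in the other ischemic libraries, and without that library its median went from 0.23 to -0.06. Among clock genes 3 of 15 rose and 3 fell, shares below those of all genes, and 7 rose without control replicate 1. The clock list's median of 0.03 changed sign under 6 of the alternatives. Hlf, an output gene of the clock, had the largest decline (-1.69 ± 0.29).

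Genes of respiration, and of part of the translation machinery, rose by small amounts. Cytosolic ribosomal protein genes rose in 54 of 81 cases and fell in 4, with a median of 0.61, and the number that fell ranged from 0 to 10 over the alternatives. Of 77 mitochondrial ribosomal protein genes 28 rose (36.4%, against 26% of all genes) and 4 fell, and with library totals 11 rose and 16 fell. Of 34 tRNA synthetases 12 rose (35.3%) and 10 fell (29.4%), against 26% and 26.1% of all genes, with 6 and 14 under library totals. Respiratory complex I rose in 31 of 36 subunits and fell in none, complexes II to IV in 21 of 25, and the ATP synthase in 13 of 17 with 1 lower. With library totals complex I rose in 22 and fell in 1, and complexes II to IV rose in 18. Median transcript lengths were 1025.5 bases for complex I, 865 for complexes II to IV and 1094 for cytosolic ribosomal proteins. The median over all protein-coding genes tested was 3431 bases. Of all such genes with transcripts of 255 to 2010 bases, 34.8% rose and 18.3% fell. The part of transcript length in these increases was not tested. Ndufa1, a small subunit of complex I, rose from 14.5, 15.7, 16.3 and 17.6 CPM to 40.6, 35.1, 42.7 and 41.5 CPM (1.32 ± 0.09, adjusted p = 2.69e-06), and Ndufv1, of the catalytic core, was at 0.00 ± 0.07 (adjusted p = 0.969). The mitochondrially encoded mt-Co1 rose from 2851 to 5466 CPM (0.94 ± 0.10). Of the 13 mitochondrially encoded protein genes 7 were tested, and the other 6, with almost no counts in any library, are not read here. Proteasome subunits rose in 25 of 38 cases, and 18 in the 16-library model.

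The family with the most uniform decline was that of genes named as zinc finger proteins (Zfp), most of which encode DNA-binding repressors. Of 336 tested, 244 fell and 9 rose, with a median of -0.70, and 110 fell by at least 2-fold. Zfp111 went from 14.7, 16.9, 18.9 and 17.5 CPM to 4.32, 4.21, 4.63 and 2.61 CPM (-2.11 ± 0.17, adjusted p = 7.46e-06) and Zfp354b from 1.98 to 0.342 CPM (-2.53 ± 0.31). The exceptions included Zfp667, which rose from 3.91 to 12.4 CPM (1.67 ± 0.22). Summed over the family, levels were 12610 to 13320 CPM in control and 7883 to 9059 CPM in ischemic libraries, so the decline was seen in abundance as well as in counts of genes. Long transcripts fell more often than short ones among all genes, and the family was therefore read within 5 equal bins of transcript length. In each bin 57.1 to 80.7% of zinc finger genes fell, against 18 to 29.3% of the other protein-coding genes, and within bins of GC content the ranges were 66.7 to 86.8% and 21.5 to 32%.

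**Figure D5:**
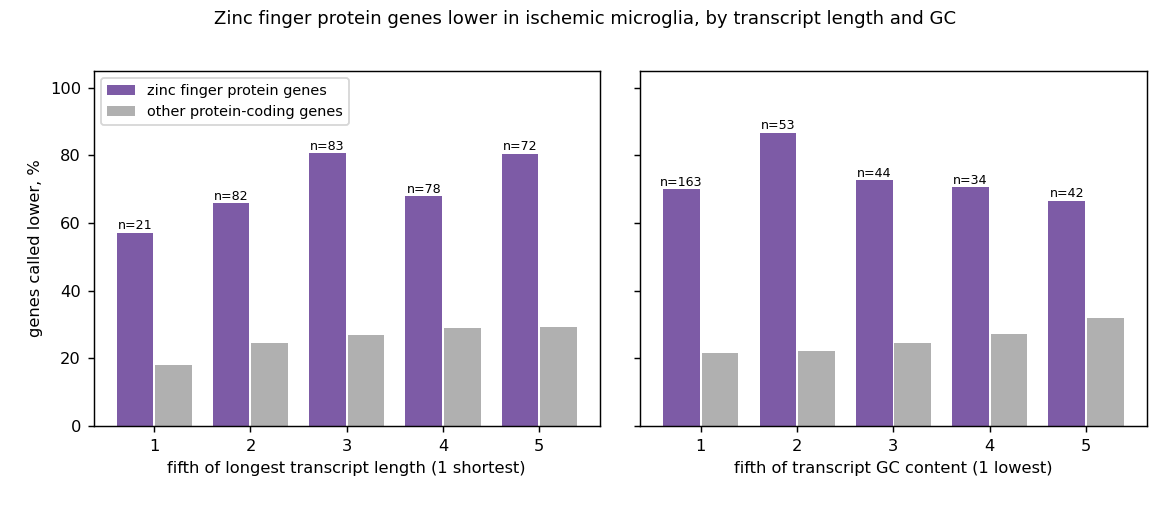
Percentage of zinc finger protein genes (purple, number of genes above each bar) and of other protein-coding genes (grey) that fell in ischemic microglia, by bin of transcript length and of GC content (each axis has 5 bins of equal gene number). The purple bar is the higher one in each of the 10 pairs.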

How the data were processed

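RNA of sorted cells was sequenced as stranded mRNA libraries, per the labels' protocols. The deposited values are raw counts of reads per Ensembl gene in 1 table of 16 libraries. Per the submitters' processing notes the tools were FastQC 0.11.5 and STAR 2.5.3a, with GRCm38. The counting program, its strand setting and the annotation release are not stated in the sources used here.

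Genes were named from GENCODE M21, and rows without a name were kept in library totals. The 8 microglia libraries were fitted alone with edgeR 4.0.16 (R 4.3.3): filterByExpr, TMM factors, robust quasi-likelihood F test, Benjamini-Hochberg adjustment, threshold 0.05. The standard error is the log2 difference over the square root of F. The fit was tested on simulated counts with 200 changed genes of the 14186, as many raised as lowered. Far more genes passed in the data, so the simulation cannot show how the scaling behaves there. Alternatives used DESeq2 1.42.0, limma 3.58.1, other scalings and filters, all 16 libraries, each library left out and, added after seeing the data, control replicate 1 and ischemic replicate 2 left out together.

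Members, gene lists and families were chosen with earlier results of these data known. Named genes had at least 20 CPM in the higher group, no overlap between groups, and were among the 12 largest changes or the 8 most abundant in each direction, or were leading, opposing, abundant or function-defining members of a list. Replicate numbers follow the labels or accession order and only name libraries.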

Additional observations from a re-analysis of the deposited data

Results flagged for a closer look

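In 23 of the 264 groups of 4 libraries examined, 1 library lay far from the other 3 for the range of its group, past Dixon's 95% critical value, and chance flags about 1 in 20 groups. The reasons were not tested. List scores are means of log2 CPM over tested members.

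Control replicate 1 held 6 of these values. Its score was 6.42 for the vacuolar ATPase (6.24 to 6.26 in the other controls), 3.34 for the type I interferon response (4.03 to 4.17), 5.42 for complement (5.86 to 5.95) and 2.10 for the Schlafen family (2.40 to 2.45). Its level was 5510 CPM for Ctsd, against 6349 to 6470 CPM in the others, and 1709 CPM for Grn, against 2018 to 2064 CPM. Interferon and complement genes were thus lowest in a control library, on the far side of the group from the ischemic libraries.

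Ischemic replicate 2 held 7. Its score was 5.08 for MHC class II genes (5.63 to 5.70) and 4.13 for B cell markers (4.55 to 4.6). It had 114 CPM of Saa3 (12.7 to 17.1 in the others), 207 CPM of Slc2a6 (142 to 151), 10500 CPM of Ctsb (13240 to 13320), 1.98 CPM of Mgl2, a lectin of dendritic cells and macrophages (8.52 to 8.70), and 33.7 CPM of Itgax (86.3 to 87.7).

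Ischemic replicate 4 scored 7.54 for costimulation (7.33 to 7.35), 5.76 for cell death and survival (5.50 to 5.53), 5.90 for the proteasome (5.81 to 5.82) and 2.62 for zinc finger proteins (2.86 to 2.89). Control replicate 3 scored 3.19 for DNA replication (2.41 to 2.49) and 3.99 for solute carriers (3.91 to 3.92). Control replicate 4 scored 6.79 for MHC class I (6.64 to 6.66) and 6.10 for glucocorticoid response genes (5.91 to 5.94), and had 18.8 CPM of Gprasp2 (28.1 to 29.3). Control replicate 2 had 107 CPM of Klhdc8b (93.5 to 94.8).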

How the results depend on the processing

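Counts of genes that rose or fell stayed within 1.5 times the reported ones in 76 of 80 recomputed values. The exceptions were 5583 genes lower with library totals, 2408 lower at an adjusted p under 0.01, and 521 higher and 199 lower when a change beyond 2-fold was tested. No named gene that had passed changed direction. Of the single-gene values 577 no longer passed, and 378 passed anew in the same direction. The other 18837 include genes that had not passed and changed sign, whether or not they then passed. With all 16 libraries 2889 genes rose and 2945 fell, with DESeq2 4057 and 3681, with limma-voom 3734 and 3744, and without control replicate 1 and ischemic replicate 2 4136 and 3876. List counts moved by over 1.5 times in 274 of 3420 recomputed values. No paired analysis was possible because the 2 groups share no replicate numbers in their labels. With 4 libraries a group, a single library can set the value of a low gene, and counts cannot show whether a change came from the cells or from which cells were sorted.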

Other observations

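The following genes lie outside the lists and were chosen after their values were seen. Psat1, an enzyme of serine synthesis, rose from 36.9, 37.9, 40.9 and 39.2 CPM to 250.4, 244, 222 and 219.8 CPM (2.59 ± 0.08, adjusted p = 1.87e-08 in edgeR), while Phgdh, the step before it, rose by 0.70 ± 0.14. Cpd, a carboxypeptidase of the trans-Golgi network, rose from 67.7 to 530.0 CPM (2.97 ± 0.09). Cd72, an inhibitory lectin best known from B cells, rose from 11.7, 13.9, 16.6 and 19.4 CPM to 241, 208, 295 and 242 CPM (4.00 ± 0.17, adjusted p = 2.67e-07 in edgeR). Hcar2, a receptor for ketone bodies and niacin, rose from 40.3 to 344 CPM (3.09 ± 0.27).

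Counts for some families follow. All 7 tested Schlafen genes and all 7 tested OAS genes rose. Of 24 semaphorins, plexins and neuropilins 10 fell (41.7%) and 6 rose (25%), against 26.1% and 26% of all genes, with 3 that rose under library totals. Processed pseudogenes rose in 76 of 238 cases and fell in 19, against 26% and 26.1% of all genes. Reads of a pseudogene and its parent gene may not be told apart by the counting.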
